A study of Mus musculus with 92 samples.

Results

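The genes described here are the pluripotency factors Pou5f1 and Klf2 and the partners named with them, Nanog, Sox2, Klf4, Klf5, Klf17, Esrrb, Tfcp2l1 and Tdgf1. The rule names them and uses no measured value, but it was written with earlier results of these data known. In all, 9 of the 10 have a row among the 7886 genes of the deposited count table. Sox2 has none and is not analysed here. Levels are given in CPM, counts scaled to the same total of table reads in every cell or sum, for 81 single blastomeres and for their sums by mouse id.

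The blastomeres came from wild-type C57BL/6N mouse embryos at the 8-cell stage, which had been microinjected as zygotes. All samples, NC included, carry IVF in their titles, the usual abbreviation of in vitro fertilisation. The 4 treatment labels are NC, a negative control (22 cells from 3 mouse ids), Let7d and Let7e, mimics of the microRNAs let-7d-5p and let-7e-5p (18 cells from 3 and 20 cells from 4), and mi699a-5p, a microRNA named so in the labels (21 cells from 4). All groups were injected, and no uninjected embryos were analysed here. Libraries were made with Smart-seq2, which amplifies full-length cDNA of 1 cell and attaches no molecular identifiers, so a count is a count of reads. What a mouse id stands for (embryo, mother or donor) is not given in the labels. The mouse id was used as the replicate, so p-values measure the spread between mouse ids, which may be technical. No mouse id occurs under 2 labels, so a batch and a label cannot be told apart.

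Pou5f1 encodes OCT4, the POU factor that holds the inner cell mass in a pluripotent state and that restrains trophectoderm genes. Klf2, Klf4 and Klf5 encode Krüppel-like zinc finger factors that bind overlapping sites in embryonic stem cells and share part of their work, and Klf17 is the family member most abundant in oocytes and early cleavage embryos. Nanog, Sox2, Esrrb and Tfcp2l1 encode further transcription factors of the naive pluripotency network. Tdgf1 encodes Cripto, a membrane-anchored co-receptor of the Nodal pathway. In the cleavage embryo some of these transcripts are stored in the egg and others come from the activated embryonic genome. MicroRNAs of the let-7 family pair through bases 2 to 8, the seed, with sites in target transcripts, and they are abundant in differentiated cells and scarce in pluripotent ones.

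The injected let-7 sequences are shown because both mimics carry the same seed, in capitals, and are alike in 19 of 22 positions (RefSeq, GRCm38.p6, 5′ to 3′).
let-7d-5p: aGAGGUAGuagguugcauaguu
let-7e-5p: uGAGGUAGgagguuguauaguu
No sequence was matched to the name mi699a-5p. The longest annotated 3′ UTR of each of the 10 genes was searched on the transcript strand for CTACCTC, the 7 bases that pair with the seed, and for TACCTCA, which pairs with bases 2 to 7 followed by A. The UTRs of Pou5f1 (221 bases), Klf2 (737 bases), Nanog, Sox2, Klf4, Klf5, Tfcp2l1 and Tdgf1 held neither. Esrrb held CTACCTC once, followed by an A that also makes it a TACCTCA, and TACCTCA a second time, and Klf17 held TACCTCA once. These matches are printed with the match in capitals, with the position of the capitals in GRCm38.
Esrrb, chr12:86519682-86519689, plus strand: ctcccctgcttcctgcccCTACCTCAgcca
Esrrb, chr12:86519960-86519966, plus strand: cccccttggcccctccctTACCTCAtaaa
Klf17, chr4:117758634-117758640, minus strand: ggatatacaatgttgtctTACCTCAgatt
CTACCTC occurred in 10.6% of 7577 genes of the table with a 3′ UTR, and TACCTCA outside the longer match in 8.24%. The median UTR searched had 1165 bases. A match is a description of letters, not a functional site.

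Pou5f1 lies at chr17:35506018-35510772 on the plus strand (GRCm38, GENCODE M21), with 2248 exonic bases. An antisense gene, Gm19553, shares 317 of them, and the sources used here do not state whether strand was used in counting. Klf2 lies at chr8:72319033-72321656 on the plus strand, with 1847 exonic bases and no overlapping gene. Counts of Tdgf1, Klf5 and Klf17 could share reads with other annotated genes that match their transcripts over at least 250 bases at 90% identity or more. Tdgf1 has 3 of them, led by Tdgf1-ps1 (98.8% over 512 bases), and Klf5 and Klf17 have 1 each. None of these other genes has a row in the table.

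A cell carried 1575609 to 4950404 reads (median 2736612), and a mouse id 6329464 to 24037593 reads over 2 to 8 cells. Blastomere identity was checked with 10 markers, of which 9 had a row, at a summed level of 5211 to 9073 CPM over mouse ids. Most of that sum was Dppa3, at a mean of 4916 CPM, so the check leans on 1 gene. Of 10 oocyte markers 5 had a row, at a summed 48.7 to 160 CPM. Of 10 cumulus and granulosa markers only Amhr2 had a row (27.7 to 76.7 CPM), and of 6 sperm markers none. The table is named as filtered on CPM, so markers without a row may be present at a low level. In 3 mouse ids (NC replicate 2, Let7e replicate 1 and mi699a-5p replicate 4) some cells carried Y-linked transcripts without Xist and others Xist without Y-linked transcripts, at 10 CPM or more. The blastomeres of these mouse ids therefore come from more than 1 embryo, and "sister" below means only that cells share a mouse id. The kinds were spread unevenly over labels: all cells of Let7d replicates 2 and 3 and of mi699a-5p replicate 1 carried Xist only, and no NC or Let7e mouse id did. Against a median correlation of 0.79 with the median profile, 7 cells stood apart with low values of 0.65 to 0.70 or with few genes. They were 4 of the 7 cells of mi699a-5p replicate 2 and 1 each of mi699a-5p replicate 1, Let7e replicate 2 and NC replicate 2. The spreads of all members, and some of their fold changes and correlations, are also given without them. Ribosomal RNA took 3.68 to 15.9% of the reads of a mouse id, and its most abundant transcript averaged 110854 CPM in NC and 45896 CPM in Let7d.

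Per kilobase of exon, the scale on which genes can be compared, Tdgf1 was the most abundant of the 9 at 259 ± 84.7 CPM per kilobase (SD, n = 14 mouse ids). Klf17 followed at 163 ± 105, then Klf5 at 88 ± 27.6 and Pou5f1 at 78.1 ± 28.9. Klf2 reached 19 ± 8.18, Nanog 11.3 ± 6.47 and Tfcp2l1 10.6 ± 6.64. Esrrb at 5.3 ± 1.79 and Klf4 at 4.67 ± 2.74 were lowest. The SDs of neighbours in this order overlapped, except between Pou5f1 and Klf2. Reads of Pou5f1, Klf5, Klf17 and Tdgf1 were found in all 81 cells, those of Klf2 in 76 and those of Klf4 in 67.

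**Figure D1:**
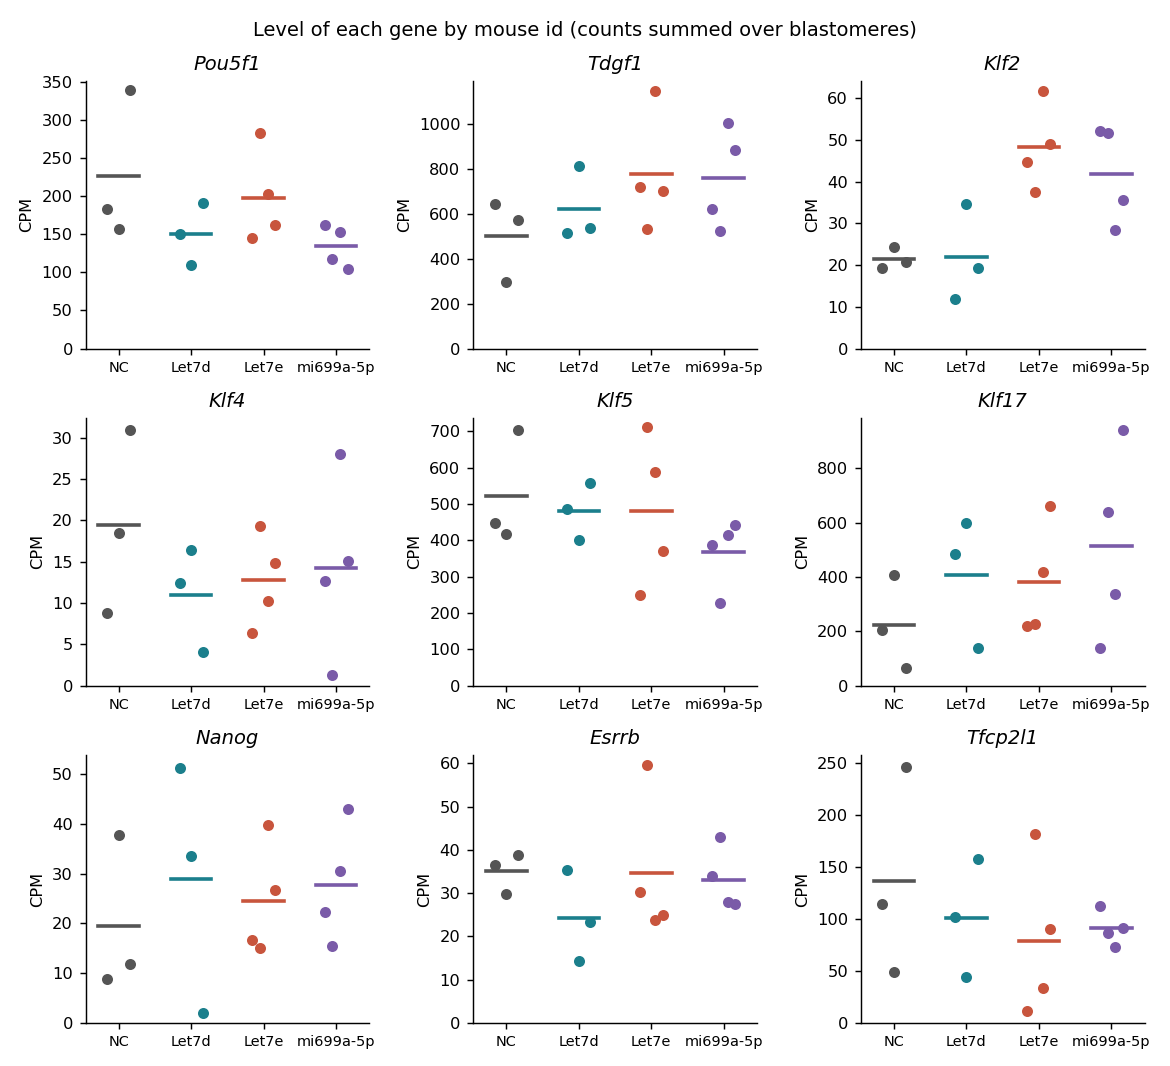
CPM (y axis, linear, from 0) of each gene in each of 14 mouse ids, after counts were summed over its blastomeres; points are mouse ids, lines are means of a treatment label. The Klf2 points of Let7e (37.6 to 61.6) and of mi699a-5p (28.3 to 52.1) lie above the 3 NC points (19.2 to 24.3), while the labels overlap for each of the other 8 genes in comparisons with NC. Among all genes, 5.34% do not overlap in Let7e against NC and 8.28% in mi699a-5p against NC.

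Pou5f1 was highest on average in NC and lowest in mi699a-5p, with all neighbouring labels overlapping. The NC mouse ids measured 183, 157 and 339 CPM, those of Let7d 150, 110 and 191 CPM. The Let7e mouse ids measured 145, 283, 202 and 162 CPM, those of mi699a-5p 162, 118, 153 and 104 CPM. NC replicate 3 stood highest of all 14, and the other NC mouse ids lay among those of the injected microRNAs. The means were 226 ± 98.3 CPM (SD, n = 3) in NC, 198 ± 61.7 (n = 4) in Let7e, 150 ± 40.6 (n = 3) in Let7d and 134 ± 27.5 (n = 4) in mi699a-5p.

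Against NC the log2 fold change of Pou5f1 was -0.79 ± 0.32 (SE) in mi699a-5p (edgeR quasi-likelihood test, unadjusted p = 0.0236, adjusted p = 0.861), -0.72 ± 0.35 in Let7d (unadjusted p = 0.0519, adjusted p = 1) and -0.23 ± 0.32 in Let7e (adjusted p = 0.999). None passed the threshold of 0.05 after Benjamini-Hochberg adjustment over all genes. These comparisons share the NC mouse ids. Without NC replicate 3 the value for mi699a-5p was -0.32, that for Let7d -0.25 and that for Let7e 0.24, so the size of the first and the second and the sign of the third rest on that mouse id. Without the 7 cells that stood apart the value for mi699a-5p was -0.87, and without ribosomal RNA and mitochondrial genes that for Let7d was -0.72. Let7e was higher than mi699a-5p by 0.56 ± 0.30 (adjusted p = 0.757) and than Let7d by 0.49 ± 0.33 (adjusted p = 0.951).

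Klf2 was the member whose labels were best separated. The NC mouse ids measured 19.2, 24.3 and 20.8 CPM, and those of Let7d 11.8, 34.7 and 19.2 CPM. The Let7e mouse ids measured 44.7, 37.6, 61.6 and 48.9 CPM, and those of mi699a-5p 52.1, 51.6, 28.3 and 35.5 CPM. Every Let7e mouse id lay above every NC and every Let7d mouse id, and every mi699a-5p mouse id above every NC mouse id. In these 3 comparisons, in that order, mouse ids did not overlap for 5.34%, 6.7% and 8.28% of all genes. NC (21.4 ± 2.61 CPM, SD, n = 3) and Let7d (21.9 ± 11.7, n = 3) were close in the mean, as were mi699a-5p (41.9 ± 11.9, n = 4) and Let7e (48.2 ± 10.1, n = 4). Neighbouring labels in that order overlapped.

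The log2 fold change of Klf2 was 1.16 ± 0.40 (SE) in Let7e against NC (edgeR, unadjusted p = 0.00929, adjusted p = 0.999) and 0.96 ± 0.40 in mi699a-5p against NC (unadjusted p = 0.0264, adjusted p = 0.866). In Let7d against NC it was -0.09 ± 0.41 (adjusted p = 1). Let7e exceeded Let7d by 1.25 ± 0.40 (unadjusted p = 0.00586, adjusted p = 0.874), the lowest p among the 54 tests of the 9 genes. After adjustment for Y-linked expression this difference was 1.78 (edgeR adjusted p = 0.951), and that of Let7d against NC -0.61 (adjusted p = 1). Let7d was below mi699a-5p by a log2 fold change of -1.05 ± 0.40 (unadjusted p = 0.0169, adjusted p = 0.948), and Let7e and mi699a-5p differed by 0.20 ± 0.36 (adjusted p = 0.949). The test of any difference among the 4 labels gave an unadjusted p of 0.00869 for Klf2 and of 0.0691 for Pou5f1 (edgeR), and neither passed after adjustment. No Klf2 difference passed the adjustment over all genes.

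Single cells carried much of the summed Klf2 reads. In Let7e replicate 2 a single cell at 194 CPM held 74.7% of the reads of 8 cells, and the median cell, at 12.8 CPM, lay below the median cells of all 3 NC mouse ids (18.2, 16.3 and 18.2 CPM). In mi699a-5p replicate 2 a single cell at 209 CPM, which is 1 of the 7 that stood apart, held 54.9% of the reads, with a median cell at 19.6 CPM. The other median cells of Let7e measured 40.8, 60.5 and 54.2 CPM. With the median cell in place of the sum, Let7e and NC overlapped, and their difference in log2(CPM + 1) was 1.01 (exact permutation test over mouse ids, two-sided, p = 0.143, where 0.0286 is the smallest possible). For mi699a-5p the median cells measured 21, 19.6, 29.3 and 34.3 CPM, all above those of NC. How many of all genes separate so by median cell was not counted. The difference of mi699a-5p from NC was 0.51 (exact permutation p = 0.0857). By median cells Let7e exceeded Let7d in Klf2 by 1.04 (exact permutation p = 0.229). Over the 12 comparisons of median cells made for Pou5f1 and Klf2 the lowest adjusted p was 0.392. Without the 7 cells that stood apart the summed log2 fold change was 1.16 in Let7e and 0.77 in mi699a-5p against NC. The Let7e cell among the 7 held no Klf2 read, and the Let7e cell at 194 CPM was kept. The value for Let7e therefore does not show how far the difference rests on that cell.

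**Figure D2:**
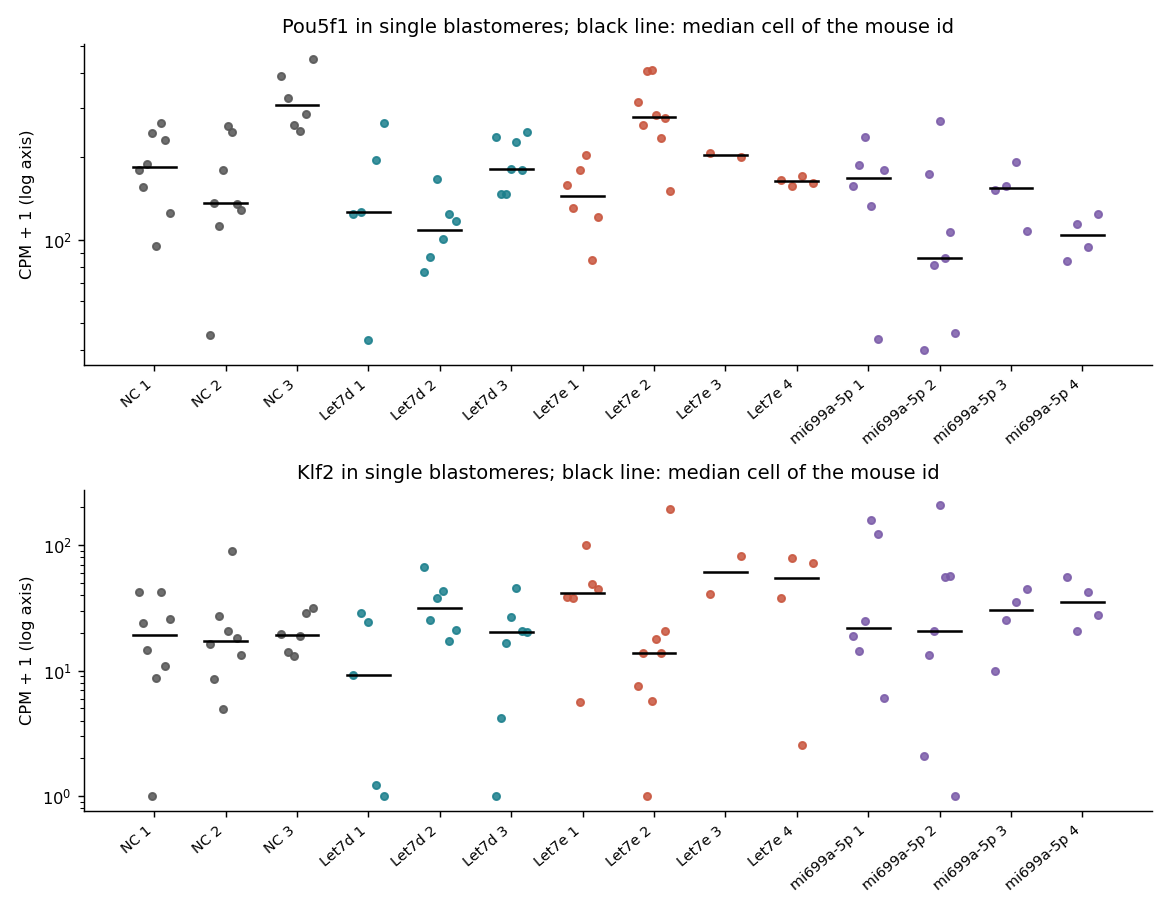
CPM + 1 (y axis, logarithmic) of Pou5f1 (top) and Klf2 (bottom) in each of 81 blastomeres by mouse id (x axis); points are cells, coloured by treatment label, and black lines are the median cells. Pou5f1 stays between 39.1 and 451 CPM, while Klf2 runs from 0 to 209 CPM, with single cells far above their sisters in Let7e replicate 2 and mi699a-5p replicate 2.

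The 9 genes were read against the whole table in each comparison, which share samples. In Let7d against NC, 0 of the 9 passed the adjusted threshold and 0 had an unadjusted p under 0.05, where 0.0127% (1 gene) and 4.69% of all genes did. In Let7e against NC these counts were 0 and 1 (Klf2), against 0% and 4.02% of all genes. In mi699a-5p against NC they were 0 and 2 (Pou5f1 and Klf2), against 0% and 5.5%. In Let7e against Let7d they were 0 and 1 (Klf2), against 0% and 5.39%. In Let7e against mi699a-5p they were 0 and 0, against 0% and 7.06%, and in Let7d against mi699a-5p 0 and 1 (Klf2), against 0% and 5.01%. In the test of any difference among the 4 labels 0 passed and 1 (Klf2) had an unadjusted p under 0.05, against 0% and 5.59%. The gene that passed, ENSMUSG00000118642.1, has no symbol in the table of names, and fell from 191 to 33.2 CPM in Let7d against NC (log2 fold change -2.65 ± 0.40, edgeR adjusted p = 0.0287). That call was lost with only the 2 labels, with the replicate block, with the Y-linked covariate, and without NC replicate 1 or 3 or Let7d replicate 1 or 3, where 0 genes passed.

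Mouse ids that did not overlap were common over all genes. They were found for 12.5% of genes in Let7d against NC, 4.07% in Let7e against mi699a-5p and 7.1% in Let7d against mi699a-5p, with none of the 9 among them. They were found for 5.34% in Let7e against NC, 8.28% in mi699a-5p against NC and 6.7% in Let7e against Let7d, with Klf2 as the only one of the 9 in each. DESeq2 on the same sums called 3, 0 and 6 genes against NC in Let7d, Let7e and mi699a-5p, and 8, 20 and 8 in the other pairs in the order above. None was a member, and the lowest adjusted p of a member was 0.294.

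**Figure D3:**
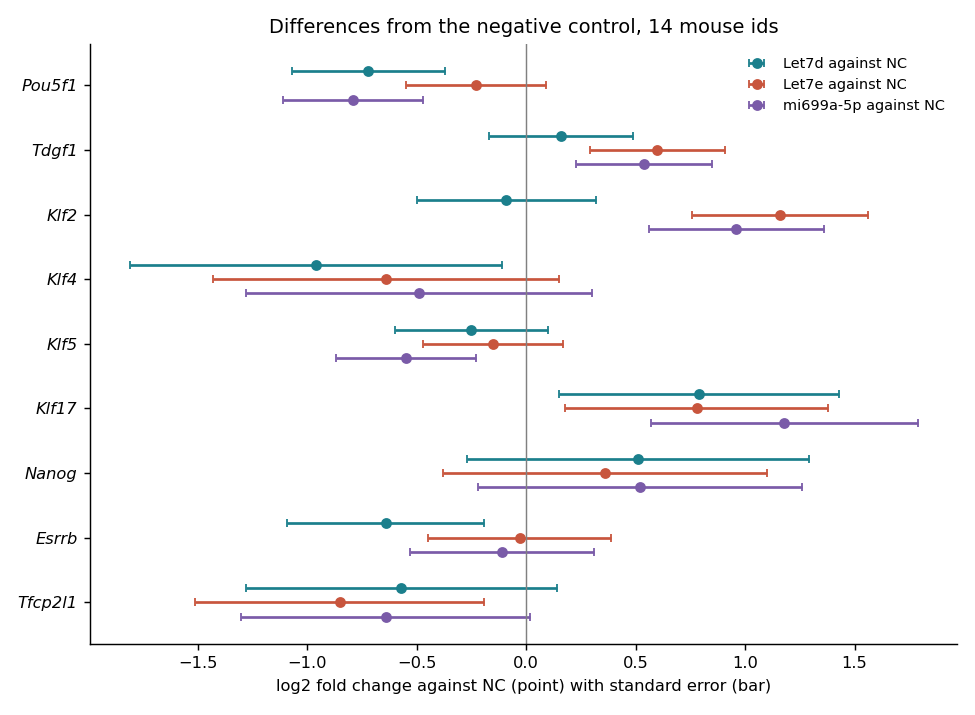
Log2 fold change against NC (x axis) of the 9 genes (y axis) in Let7d, Let7e and mi699a-5p, from the edgeR fit of 14 mouse ids; points are estimates and bars standard errors. The Klf2 estimates of Let7e (1.16) and mi699a-5p (0.96) and the Pou5f1 estimates of Let7d (-0.72) and mi699a-5p (-0.79) lie at least 2 standard errors from 0, and none passes the adjusted threshold.

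Klf17 varied widely between mouse ids. The NC mouse ids measured 203, 408 and 63.9 CPM, and those of Let7d 486, 599 and 138 CPM. The Let7e mouse ids measured 218, 228, 418 and 660 CPM, and those of mi699a-5p 137, 638, 336 and 940 CPM. All labels overlapped, and the highest mouse id exceeded the lowest by 14.7 times. The mean was 225 ± 173 CPM (SD, n = 3) in NC and 513 ± 352 (n = 4) in mi699a-5p, a log2 fold change of 1.18 ± 0.61 that did not pass (edgeR adjusted p = 0.871). It was 0.72 without mi699a-5p replicate 4, 0.76 without NC replicate 3 and 1.85 without NC replicate 2, and 1.44 without the 7 cells that stood apart (unadjusted p = 0.0358, adjusted p = 0.604). In the cell of mi699a-5p replicate 2 that held the highest Klf2 level, Klf17 measured 0.865 CPM, and in its 6 sisters up to 1373 CPM.

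Klf5 was steadier. The NC mouse ids measured 447, 418 and 704 CPM and the Let7d ones 486, 400 and 557 CPM. Those of Let7e measured 250, 712, 587 and 372 CPM, and those of mi699a-5p 387, 228, 415 and 442 CPM. NC replicate 3 and Let7e replicate 2, the mouse ids highest in Pou5f1, were also highest in Klf5. Against NC the largest of its log2 fold changes was -0.55 ± 0.32 in mi699a-5p (edgeR adjusted p = 0.904). It was -0.22 without NC replicate 3, as for Pou5f1 the mouse id that bears most on it, and -0.51 without the 7 cells. Klf4 stayed low, between 1.29 CPM in mi699a-5p replicate 2 and 30.9 CPM in NC replicate 3, and 14 of the 81 cells held no read of it.

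Nanog, Esrrb and Tfcp2l1 overlapped between all labels. Nanog lay between 1.91 and 51.3 CPM, and both extremes were Let7d mouse ids. In Let7d replicate 3, the lowest, 4 of 7 cells held no Nanog read and a single cell held 85% of the reads. Esrrb, whose UTR holds let-7 seed matches, was lowest in Let7d, at 24.3 ± 10.5 CPM (SD, n = 3). Under NC it measured 35 ± 4.66 CPM (n = 3), under mi699a-5p 33 ± 7.25 CPM (n = 4) and under Let7e 34.6 ± 16.9 CPM (n = 4). Let7e replicate 2 measured 59.6 CPM and the other Let7e mouse ids 30.2, 23.7 and 25 CPM. In that replicate a single cell at 255 CPM, 1 of the 7 that stood apart, held 48.4% of the Esrrb reads. The log2 fold changes of Esrrb against NC were -0.64 ± 0.45 in Let7d, -0.11 ± 0.42 in mi699a-5p and -0.03 ± 0.42 in Let7e, and none passed (edgeR adjusted p of 0.995 or higher). Klf17, whose UTR also holds a let-7 match, was higher than in NC in Let7d (0.79 ± 0.64) and Let7e (0.78 ± 0.60), and neither passed. Whether the matches bear on these levels was not tested. Tfcp2l1 ranged from 11.1 CPM in Let7e replicate 1 to 246 CPM in NC replicate 3.

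Tdgf1, the co-receptor, measured 642, 294 and 571 CPM in NC and 513, 810 and 536 CPM in Let7d. It measured 720, 533, 1147 and 700 CPM in Let7e and 621, 524, 1002 and 883 CPM in mi699a-5p. The means of the latter labels were higher and the mouse ids overlapped with NC. The log2 fold change against NC was 0.60 ± 0.31 in Let7e (edgeR adjusted p = 0.999) and 0.54 ± 0.31 in mi699a-5p (adjusted p = 0.904). The value for Let7e was 0.30 without NC replicate 2, 0.33 without Let7e replicate 3 and 0.57 without the 7 cells.

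The spread between sister blastomeres was measured as the SD of log2(CPM + 1) within a mouse id, averaged over the 13 mouse ids with 3 or more cells (79 cells), and set beside genes whose mean level lies within 1.5 times. Pou5f1 varied little, with a mean SD of 0.52, and 12.2% of 1058 genes of like level varied less. In Let7e replicate 4 its 4 cells lay between 156 and 169 CPM, and in mi699a-5p replicate 2 its 7 cells between 39.1 and 269 CPM, a ratio of 6.87. Klf2 had a mean SD of 1.57, close to the median of 1.56 of its 1971 like genes. Nanog (1.82), Klf4 (1.76) and Esrrb (1.31) also lay inside the range of genes of their level, with 55.4%, 30.1% and 25.7% of them below.

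Klf17 had a mean SD of 1.18, and 99.4% of 533 genes of like level varied less. The median over mouse ids, on which the cell at 0.865 CPM bears little, was 0.90, with 97% of like genes below. Tfcp2l1 (1.53, 96.1% below) and Tdgf1 (0.69, 92.3% below) also lay high for their level, and Klf5 (0.64) had 75.2% below. The share of the variance between cells that lay between mouse ids was 37.5% for Pou5f1, against a median of 9.14% in its like genes, 29.6% for both Klf5 and Tfcp2l1, 26.3% for Klf17 and 22.1% for Tdgf1. The medians of like genes were 11.7% for Klf5, 6.19% for Tfcp2l1, 11.9% for Klf17 and 14.1% for Tdgf1. For Klf2 and Esrrb the estimated share was not above 0 and was set to 0%, against medians of 4.43% and 4.51%. Of these mouse ids 10, called of 1 kind, did not mix cells with only Xist and cells with only Y-linked transcripts. They gave a mean SD of 0.52 for Pou5f1 and 1.72 for Klf2, and the 3 that mixed them 0.50 and 1.09.

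Without the 7 cells that stood apart (72 cells of 13 mouse ids) the mean SD of Pou5f1 was 0.39, with 2.65% of like genes below, and that of Klf2 1.39, with 43.1% below. Klf17 kept a high spread for its level at 0.99 (99.2% below), as did Tfcp2l1 at 1.46 (96.7% below), while Tdgf1 was at 0.52 (82.9% below). The other members were at 0.58 for Klf5, 1.38 for Esrrb, 1.73 for Klf4 and 1.75 for Nanog. The size of the spread of low genes also depended on the pseudocount. On log2(CPM + 10) the mean SD of Klf2 was 0.93 and that of Pou5f1 0.48, with 56.8% and 10.5% of like genes below.

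**Figure D4:**
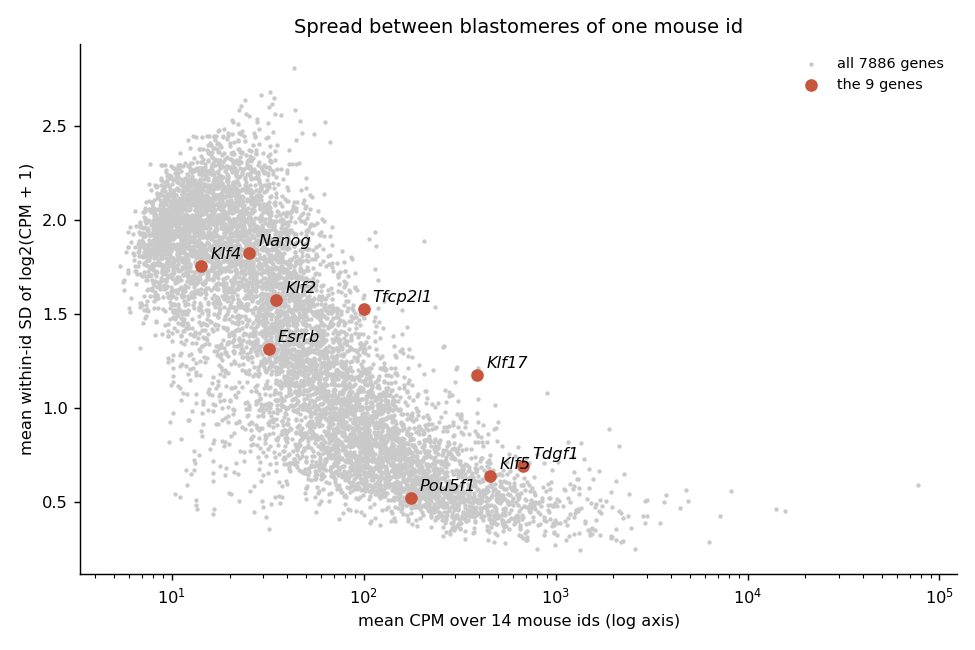
Mean SD of log2(CPM + 1) within mouse ids (y axis) against mean CPM over 14 mouse ids (x axis, logarithmic) for all 7886 genes (grey) and the 9 genes (red, named). Klf17 (1.18) and Tfcp2l1 (1.53) sit at the upper edge of genes of their level and Pou5f1 (0.52) in the lower part.

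No difference in spread between labels was detectable with these mouse ids. For Pou5f1 the mean SD was lowest in Let7e, at 0.32 ± 0.24 (SD over 3 mouse ids), and highest in mi699a-5p, at 0.61 ± 0.37 (4 mouse ids), with NC at 0.54 ± 0.22 and Let7d at 0.57 ± 0.37 (3 each). For Klf2 it was lowest in NC (1.17 ± 0.62) and highest in Let7e (1.94 ± 0.49), with mi699a-5p at 1.54 ± 0.95 and Let7d at 1.65 ± 0.82. Over the 12 exact permutation tests the lowest p was 0.2, and every adjusted p was 0.943. The smallest p these designs allow is 0.1 for 3 against 3 mouse ids and 0.0286 for 3 against 4. Thinning each cell to 1575609 reads left the means at 0.53 for Pou5f1 and 1.56 for Klf2.

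Over the 14 mouse ids Pou5f1 was low where Klf17 was high, and high where Klf5 was high. Of the 36 pairs of members, 2 had an adjusted p under 0.05 for Pearson's r on log2 CPM. Pou5f1 and Klf17 gave r = -0.77 (permutation p = 0.00124, adjusted over the 36 pairs 0.0315) and Spearman's rho = -0.70 (permutation p = 0.00726, adjusted 0.131). Pou5f1 and Klf5 gave r = 0.76 (permutation p = 0.00175, adjusted 0.0315) and rho = 0.70 (permutation p = 0.00712, adjusted 0.131). The rank correlations thus did not pass. After the 2 mouse ids farthest from the median of Pou5f1 were left out, r was -0.67 and 0.52, and after label means were removed it was -0.81 and 0.77. Without NC replicate 3 alone, r was -0.64 (adjusted p = 0.232) and 0.68 (adjusted p = 0.215), so both calls rest on that mouse id among others. Without the 7 cells that stood apart r was -0.79 and 0.79.

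Among 5697 genes of at least 20 CPM, 0.913% had an r with Pou5f1 as far from 0 as Klf17, and 1.14% as far as Klf5. The ribosomal RNA share of a mouse id had r = 0.34 with Pou5f1, -0.46 with Klf17 and -0.05 with Klf5, and reads per cell had r between -0.04 and 0.18 with these 3 genes. Their part in the relations was not tested. Between sister cells the picture differed by pair. Over 81 cells, as deviations from the mean of their mouse id, Pou5f1 and Klf17 had r = -0.43 and Pou5f1 and Klf5 r = -0.00. Pou5f1 and Tdgf1, with r = -0.05 over mouse ids, had r = 0.37 between sister cells, the highest of the 36 pairs, and Klf2 and Tdgf1 r = 0.34. Without the 7 cells that stood apart these were 0.07 and 0.08 over 74 cells, so both rest on those cells. Pou5f1 and Klf17 then had r = -0.24 and Pou5f1 and Klf5 r = 0.14. For Pou5f1 and Klf2, r between sister cells was -0.09 with the 7 cells and -0.33 without them. For Klf17 and Tfcp2l1 it was -0.33 and -0.39. Cells of 1 mouse id share handling and reads of 1 cell sum to a fixed total, so these are descriptions.

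**Figure D5:**
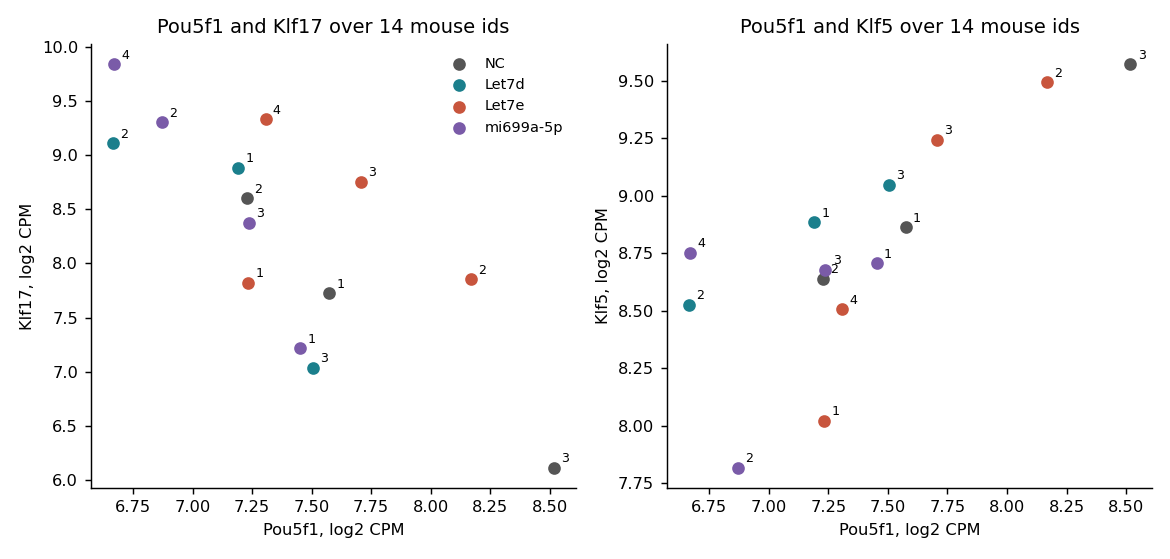
Log2 CPM of Klf17 (left, y axis) and Klf5 (right, y axis) against log2 CPM of Pou5f1 (x axes) for 14 mouse ids, coloured by treatment label and numbered by replicate. Klf17 is lower (r = -0.77) and Klf5 higher (r = 0.76) where Pou5f1 is higher, with NC replicate 3 at the far right of both.

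The genes whose level over mouse ids was most like that of Pou5f1, by Pearson's r on log2 CPM among 5697 genes, were Mkrn1 (0.89), Lrpap1 (0.89), Map2k2 (0.88), Ago2 (0.86), an Argonaute protein that binds microRNAs, and Npm1 (0.85), a nucleolar protein. The most opposed were Arhgap29 (-0.93), Hspa5 (-0.89), a chaperone of the endoplasmic reticulum, and Obox8 (-0.87), an oocyte homeobox gene. Between sister cells their r had the same sign and was smaller, from 0.21 to 0.49 for the first 5 and from -0.30 to -0.21 for the last 3. For Klf2 the likeness was weaker, with Klhl11 (0.76), 2810004N23Rik (0.74), Ppp1r10, Eif3k and Slc23a2 (0.73 each) highest and Cdan1 (-0.81), Fam192a (-0.79) and Zfp180 (-0.78) lowest. Of the 5 highest, only Eif3k (0.38) and 2810004N23Rik (0.20) had a positive r with Klf2 between sister cells.

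Other genes of the pluripotency network were read from a list of 34, of which 23 had a row. In the 6 comparisons 0 of the 23 passed, and 13 of 138 tests (9.42%) had an unadjusted p under 0.05, from 5 genes. Over all genes this share was 4.02 to 7.06% in the same comparisons, which share samples, so that tests of 1 gene are not independent. Dppa3, a maternal factor that protects the early embryo's DNA methylation, was the most abundant at 4916 CPM and was lower in Let7d than in mi699a-5p (log2 fold change -0.59 ± 0.21, edgeR adjusted p = 0.948). Dppa2 was higher in Let7d (0.58 ± 0.21) and Let7e (0.57 ± 0.20) than in NC. Trim28, a corepressor, was lower than in NC in Let7d (-0.61 ± 0.26) and mi699a-5p (-0.62 ± 0.24), and Zfp143 was higher there (0.87 ± 0.31 and 0.82 ± 0.30). Rest was higher in Let7e than in Let7d (0.66 ± 0.30). None of these differences passed the adjusted threshold. The median log2 fold change of the list lay between -0.19 and 0.15 over the comparisons, and that of all genes between -0.03 and 0.04.

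Of 18 further Klf and Sp family genes 10 had a row, 0 passed, and 8 of 60 tests (13.3%, beside 4.02 to 7.06% of all genes) had an unadjusted p under 0.05, from 4 genes. Klf9 was higher in mi699a-5p, at 81.5 ± 28.7 CPM (SD, n = 4), than in NC, at 43.5 ± 1.28 (n = 3), with a log2 fold change of 0.88 ± 0.32 (edgeR adjusted p = 0.858). It was also below mi699a-5p in Let7e (-1.05 ± 0.29, edgeR adjusted p = 0.519) and in Let7d (-1.15 ± 0.32, adjusted p = 0.67). Sp2 was higher than in NC under all 3 microRNA labels, from 0.93 ± 0.43 in Let7d to 1.03 ± 0.41 in mi699a-5p. Sp3 was higher in Let7e than in NC (1.09 ± 0.47), and Klf10 lower in Let7e than in Let7d (-1.23 ± 0.56). Klf13 was the most abundant at 192 CPM. Of 11 POU and Sox family genes 5 had a row, led by Sox15 at 497 CPM, and 0 of 30 tests had an unadjusted p under 0.05, beside 4.02 to 7.06% of all genes.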

How the data were processed

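Of each gene and cell the authors deposited a whole-number read count, not normalized, in a table named as filtered on CPM; the threshold is not given in the sources used here, and the smallest mean is 5.06 CPM. Per the submitters' processing notes the tools and builds include STAR and GRCm38.p6, and the counter is not given in the sources used here. The RPKM values the authors deposited were only checked, since the gene length they imply varied between cells, by a median over genes of 223.7 times from the smallest to the largest. Of 92 labelled cells 82 had a column and 10 were not analysed here. A pair of columns of Let7d replicate 2 differed by about as much as sampling noise (chi-square 1.05 per gene, next pair 28.7) and was counted as 1 cell, which left 81.

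Counts were summed by mouse id and tested with edgeR 4.0.16 (R 4.3.3): TMM, filterByExpr (0 genes removed), quasi-likelihood F test, 1 fit of 4 labels with 10 residual degrees of freedom, 6 contrasts and an overall test, two-sided, Benjamini-Hochberg over 7886 genes at 0.05. Fold changes use TMM-scaled totals, CPM the reads in the table, and log2 CPM a prior count of 2. Single values were compared by exact permutation over mouse ids, and correlations with 100000 resamples. Intervals for counting error are not given because reads are not independent molecules. The fit was tested on simulated data. Alternatives were DESeq2 1.42.0, RLE factors, no filter, 2 labels only, a replicate block, a Y-linked covariate, cells scaled alike, no ribosomal or mitochondrial genes, and leaving out each mouse id. Added after seeing the data were the 7 cells left out (over 3 scaled median absolute deviations below the median), the median cell, mouse ids of 1 kind, and a pseudocount of 10 for the spread of all 9 members. The members and gene lists were chosen with earlier results of these data known. From other lists, genes with an unadjusted p under 0.05 in any of the 6 comparisons and the most abundant gene are named, and for likeness the 5 highest and 3 lowest correlations.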

Additional observations from a re-analysis of the deposited data

How the results depend on the processing

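No member passed the adjusted threshold under any alternative that was run. The fold changes of Pou5f1 and Klf2 kept their sign with exceptions close to 0. Pou5f1 in Let7d against mi699a-5p turned from 0.07 to -0.07 with the replicate block and ranged from -0.11 to 0.29 when mouse ids were left out. Pou5f1 in Let7e against NC ranged from -0.47 to 0.24 and Klf2 in Let7d against NC from -0.55 to 0.20 when mouse ids were left out, and the latter was -0.61 with the Y-linked covariate. Klf2 in Let7e against NC stayed between 1.01 and 1.27 and in mi699a-5p against NC between 0.51 and 1.07. Genes called in Let7d against NC, 1 with edgeR, numbered 3 with DESeq2, and 0 with only the 2 labels, the replicate block or the Y-linked covariate, and 0 to 1 when mouse ids were left out (0 without NC replicate 1 or 3 or Let7d replicate 1 or 3). DESeq2 called 6 genes in mi699a-5p against NC, 8 in Let7e against Let7d, 20 in Let7e against mi699a-5p, 8 in Let7d against mi699a-5p and 15 in the overall test, where edgeR called 0. Left-out mouse ids gave 0 to 2 in mi699a-5p against NC (2 without mi699a-5p replicate 3), and 0 to 1 in Let7e against Let7d (1 without Let7d replicate 2), in Let7e against mi699a-5p (1 without mi699a-5p replicate 3) and in the overall test (1 without Let7d replicate 2 or mi699a-5p replicate 3). The cause was not tested. The relation of Pou5f1 with Klf17 lost its adjusted call in 6 of 14 such fits (r from -0.82 to -0.64) and that with Klf5 in 9 of 14 (r from 0.68 to 0.82). Mouse ids with the same number did not deviate together (mean r 0.0059 over 19 pairs, from -0.126 to 0.128), so the replicate block does not describe a pairing. It changed no call of a member. The mouse ids number 3 or 4 a label, and Let7e replicate 3 holds 2 cells.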

Other observations

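Regulators of the first lineages outside the pluripotency network were read from the same tests, in which 0 of them passed. Of 18 trophectoderm regulators 13 had a row, and 12 of 78 tests (15.4%, beside 4.02 to 7.06% of all genes in the 6 comparisons) had an unadjusted p under 0.05, from 6 genes. Gata3, a trophectoderm factor, measured 9.18 ± 9.2 CPM (SD, n = 4) in Let7e, 47.3 ± 34.1 (n = 3) in NC and 81.4 ± 42.1 (n = 3) in Let7d, a log2 fold change of -3.02 ± 0.91 in Let7e against Let7d (edgeR adjusted p = 0.869). The receptor Lrp2 was higher in Let7d than in NC by 2.27 ± 0.60 (edgeR adjusted p = 0.886), Fgfr2 by 1.29 ± 0.45 and the adaptor Dab2 by 1.14 ± 0.43. Amot, a Hippo pathway scaffold, was lower than in mi699a-5p in Let7e (-1.01 ± 0.45) and Let7d (-1.22 ± 0.50). Tead4 was the most abundant at 721 CPM. Of 6 primitive endoderm genes 3 had a row, and Gata6 was lower in mi699a-5p than in NC (-0.98 ± 0.43, edgeR adjusted p = 0.871). Of 8 genes tied to blastomere asymmetry 4 had a row, led by Prmt5 at 399 CPM, with 0 of 24 tests at an unadjusted p under 0.05, beside the same share of all genes.

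Of 18 chromatin partners of OCT4 15 had a row, 0 passed, and 9 of 90 tests (10%, beside 4.02 to 7.06% of all genes) had an unadjusted p under 0.05, from 7 genes. Wdr5 was the most abundant at 492 CPM. Parp1 measured 340 ± 78.4 CPM (SD, n = 3) in NC and 595 ± 128 (n = 3) in Let7d (log2 fold change 0.70 ± 0.23, edgeR adjusted p = 0.886). Setdb1 was higher in Let7e than in NC (0.71 ± 0.33) and Ctbp2 lower in mi699a-5p than in NC (-1.43 ± 0.60). Mta3 (0.64 ± 0.28) and Kdm1a (0.79 ± 0.36) were higher in Let7e than in mi699a-5p, and Smarca4 (-0.43 ± 0.19) and Nr6a1 (-1.78 ± 0.78) lower in Let7d than in mi699a-5p. None of these passed the adjusted threshold.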
